A study of Mus musculus with 6 samples.

Results

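Secreted antagonists of Wnt signalling were followed in colonic epithelium of mice lacking the microRNA miR-31. The set held 9 genes, Sfrp1, Sfrp2, Sfrp4, Sfrp5, Frzb, Wif1, Dkk1, Dkk2 and Dkk3, out of 23462 genes with a symbol on the array. They were found through the RefSeq accession of each probe, and all of their 11 probes were kept, out of 56605 non-control probes. Frzb and Dkk3 had 2 probes each and the other 7 genes had 1, with 1 spot per array for every probe. The family was chosen by the difference of Sfrp1 between the genotypes, which was already known on these arrays. Differences between the genotypes in its members are therefore a description. Their log2 changes, standard errors and calls are read from the fit over all probes and count as no evidence of a difference. Each standard error (SE) of a log2 change is the moderated one of that fit, which also draws on the variance of all tested probes.

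The series compared 3 male miR-31 knockout (KO) mice with 3 male wild-type (WT) mice, 1 single-colour Agilent array per mouse. Every sample was colonic epithelium that had been separated by flow into TRIzol. The strain, the age, the gate and the way the knockout was made are not given in the sources used here. All 6 arrays lay on 1 slide, KO in one row and WT in the other, so slide row and genotype cannot be told apart.

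Wnt proteins keep crypt base cells dividing by binding Frizzled receptors and the co-receptors Lrp5 and Lrp6, which stabilises beta-catenin. The secreted antagonists act outside the cell. Sfrp proteins and Frzb (also called Sfrp3) carry a Frizzled-like cysteine-rich domain and bind Wnt proteins, Wif1 binds Wnt proteins through a domain of its own, and Dkk1 and Dkk2 bind Lrp5 and Lrp6. Dkk3 is a divergent member of the Dkk family. In the intestine many of these genes are made by mesenchymal cells below the crypts, and in human colorectal tumours several of their promoters are known to be methylated at CpG sites.

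The deleted gene gives rise to a pair of mature microRNAs, shown here because they define the KO group, with bases 2 to 8, the seed, in capitals. Both lie on the minus strand of chromosome 4 in RefSeq's GRCm38.p6 assembly, the 5p form at chr4:88910614-88910635 and the 3p form at chr4:88910577-88910599. Dkk1 has been reported as a direct target of miR-31 in mouse intestine. The arrays measure RNA of protein-coding and other long transcripts and did not check the deletion.
mmu-miR-31-5p: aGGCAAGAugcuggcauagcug
mmu-miR-31-3p: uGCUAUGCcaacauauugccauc

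The deposited processed intensity is given first for each gene. On detected spots it is close to the background-subtracted signal. On 28 of the 42 member spots not well above background it lay within 10% of the software's estimate of its error, and on 15 the background-subtracted signal was below 0, so a low value printed here is often a stand-in set by that error. Levels are log2 of that intensity minus the 75th percentile of the array, so that 0 is the 75th percentile. A probe counted as detected on an array where the extraction software marked it well above background. The lowest intensity of any probe so marked was 51.0, 32.3 and 33.1 in KO replicates 1 to 3, against 34.5, 22.2 and 24.0 in WT replicates 1 to 3. KO replicate 1 therefore had the highest detection limit. Between 66.6% and 71.1% of probes were detected on the KO arrays and between 70.9% and 75.6% on the WT arrays. None of the 66 member spots was marked as non-uniform or as an outlier.

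Of the 9 genes, 3 were detected on all 6 arrays (Sfrp2, Sfrp5 and Wif1), Sfrp1 was detected on every KO array and no WT array, and Dkk3 was detected on some arrays of both genotypes. Sfrp4, Frzb, Dkk1 and Dkk2 were not well above background on any array. A probe was tested when detected on at least 3 arrays, which left 5 of the 11 probes, 1 each of Sfrp1, Sfrp2, Sfrp5, Wif1 and Dkk3, among 33231 tested probes. The Sfrp1 probe passed that filter only through its KO arrays, so its passing already carried a difference. It was the only 1 of the 5 called, at an adjusted p under 0.05 in limma. Over all tested probes 0.208% were called, 0.147% higher and 0.0602% lower in KO tissue. It was also the only 1 of the 5 whose groups did not overlap, against 17.9% of all tested probes (5.75% with KO above WT and 12.2% with KO below WT). Nothing is read from either count, since the call of Sfrp1 led to the choice of the family.

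**Figure D1:**
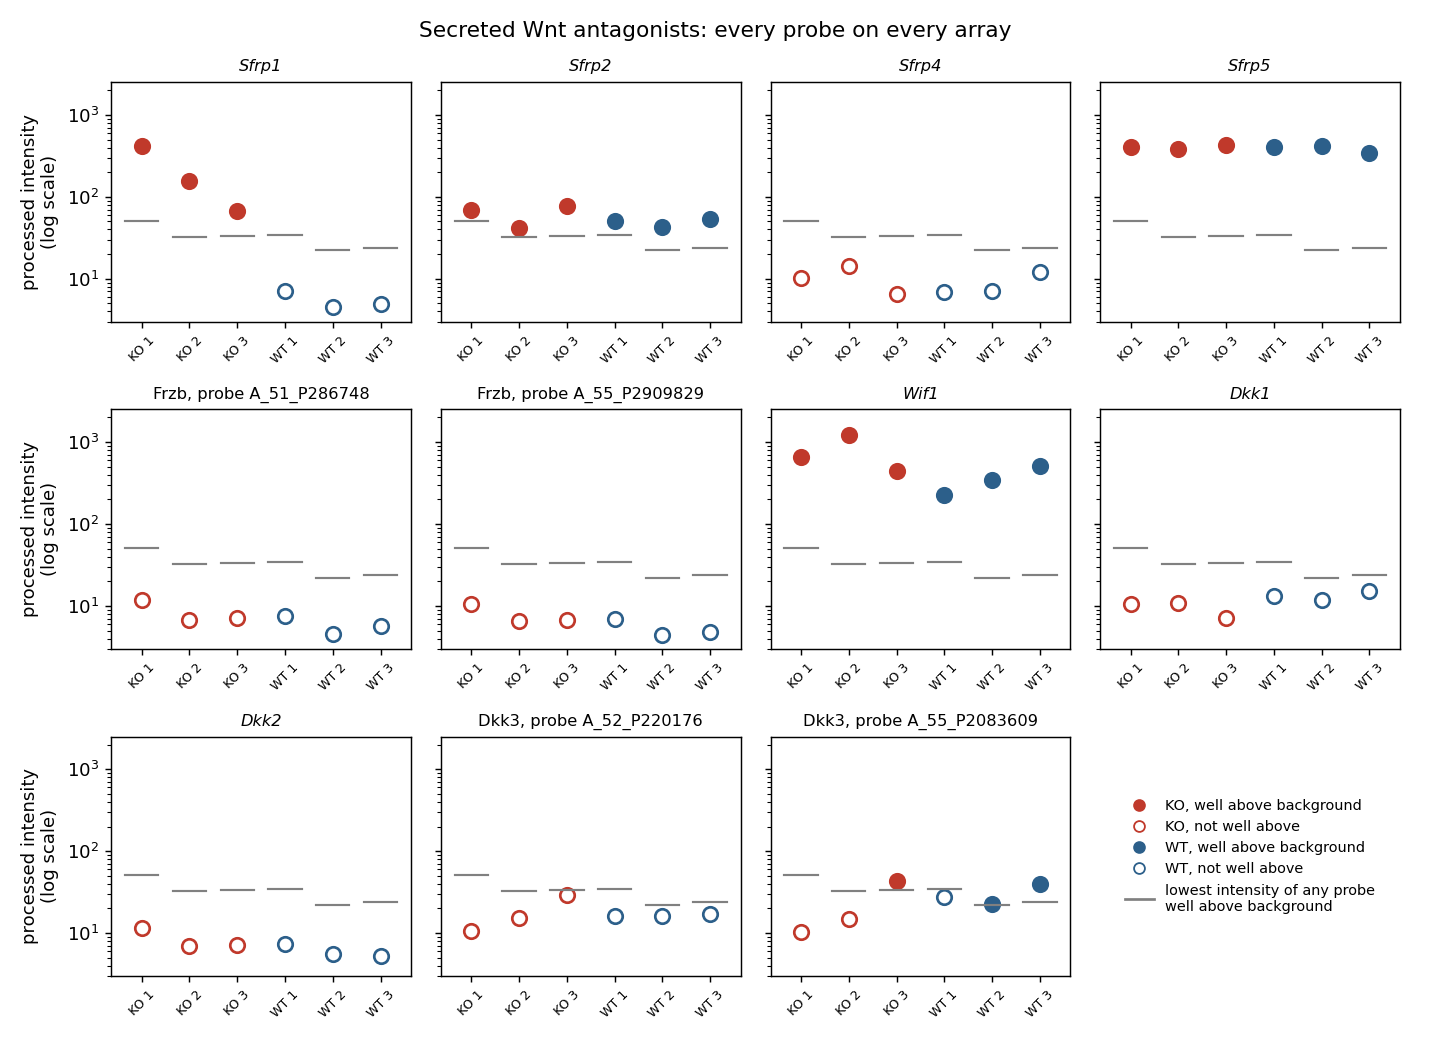
Processed intensity (log scale) of every probe of the 9 genes on the 3 KO arrays (red) and the 3 WT arrays (blue); filled points were well above background, open points were not, and grey bars mark the lowest intensity of any probe well above background on that array. Sfrp1 is filled in KO and open in WT, Sfrp5 lies between 340 and 430 on all 6 arrays, and Sfrp4, Frzb, Dkk1 and Dkk2 are open throughout.

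Sfrp1, on chromosome 8, showed the family's widest difference between genotypes. Its probe read 420, 158 and 67.1 in KO replicates 1 to 3, against 7.02, 4.57 and 4.90 in WT replicates 1 to 3. Every KO array lay above every WT array, and no WT spot was well above background. The WT values are such stand-ins, with error estimates of 7.04, 4.59 and 4.93 and background-subtracted signals of 3.12, 0.203 and 5.03. Since WT tissue gave only a bound, KO tissue was at least 5.85-fold higher, from a mean KO level of -4.35 against a WT bound of -6.90 on the log2 scale (measured WT mean -9.19). The bound takes, on each WT array, the lowest level of any probe well above background. The log2 change fitted to the values as deposited was 4.84 ± 0.60 (SE, n = 3 and 3), which rests on stand-in values in WT and is no measure of fold. With normexp background correction and an offset of 50 added to each spot, it was 1.40, and Sfrp1 was no longer called. Testing dim probes as well, or leaving out KO replicate 2 or any 1 of the WT arrays, also ended the call. The log2 change was 4.82 without KO replicate 2, and 5.06, 4.73 and 4.72 without WT replicates 1, 2 and 3.

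The spot of Sfrp1 was also read before background subtraction. Its median pixel was 310.5, 180 and 100 in KO replicates 1 to 3, over a local background of 25, 25 and 24. In WT replicates 1 to 3 it was 32, 29 and 39 over 26, 26 and 25. By median pixel, too, every KO array lay above every WT array. Within WT the order differed, with replicate 3 highest by median pixel and replicate 1 by processed intensity. These are the same spots that led to the choice of the family, so they add no separate evidence. Within the KO group Sfrp1 differed 6.25-fold between the highest and the lowest mouse by processed intensity, and 3.76-fold by median pixel minus local background. The SD between KO mice was 1.30 on the log2 scale, larger than that of 99.4% of the tested probes with 3 KO values, whose median was 0.19.

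**Figure D2:**
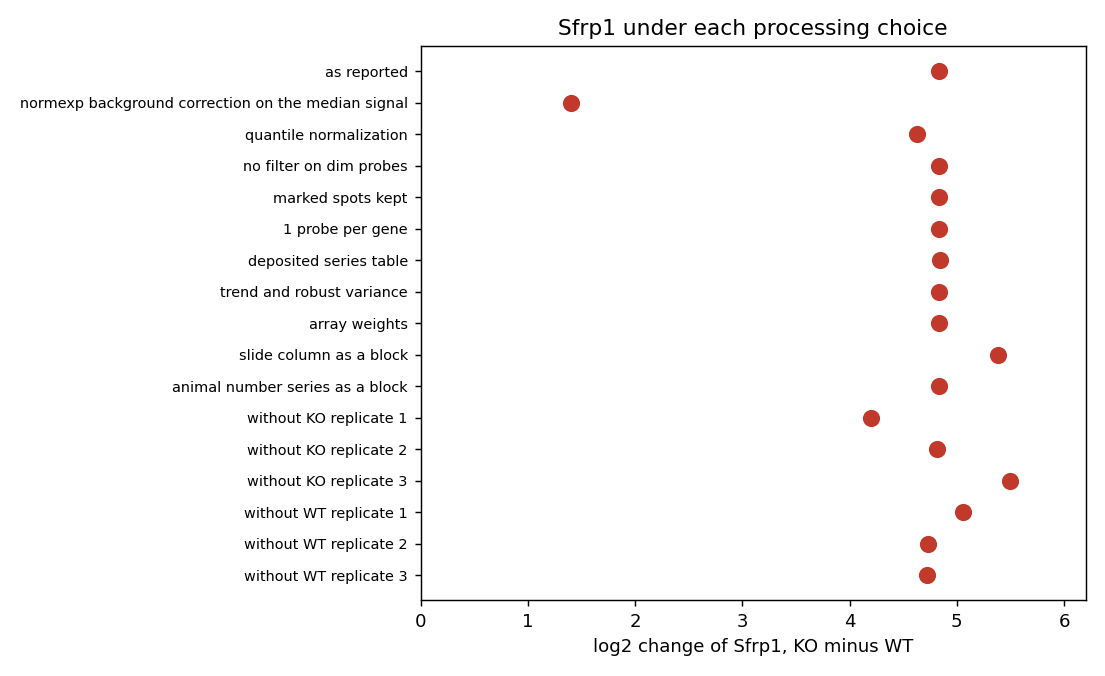
Log2 change of Sfrp1 (x axis, KO minus WT) under the reported processing and each of 16 alternatives (rows). All points lie above 0, between 1.40 and 5.50, with normexp lowest.

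The other Sfrp genes that were detected showed no such pattern. Sfrp5, on chromosome 19, read between 381 and 430 in KO mice and between 340 and 420 in WT mice. Its levels were -3.11, -3.03 and -2.99 in KO replicates 1 to 3, against -2.89, -2.89 and -3.30 in WT replicates 1 to 3. The groups overlapped and lay close together, with a log2 change of -0.02 ± 0.15 (SE, n = 3 and 3). Over the alternatives its log2 change lay between -0.18 and 0.05, positive under 4 and negative under 12 of 16. Its SD between KO mice, 0.06, was larger than that of only 10% of the tested probes.

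Sfrp2, on chromosome 3, is known as a product of fibroblasts in many tissues. Its probe read 68.6, 41.2 and 76.9 in KO replicates 1 to 3, against 51.3, 42.6 and 53.2 in WT replicates 1 to 3. These values lie only a little above the detection limits, and KO replicate 2 was below all 3 WT mice while the other KO mice were above them. The log2 change was 0.21 ± 0.21 (SE, n = 3 and 3), between 0.05 and 0.43 over the alternatives.

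Sfrp4 and Frzb gave no detectable signal. Sfrp4, on chromosome 13, read between 6.58 and 14.2 in KO mice and between 6.88 and 12.0 in WT mice. The probes of Frzb, on chromosome 2, read between 6.61 and 11.9 in KO mice and between 4.47 and 7.57 in WT mice. No order is read from values below the detection limit.

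Wif1, on chromosome 10, varied widely between mice of both genotypes. Its probe read 651, 1207 and 447 in KO replicates 1 to 3, against 227, 346 and 510 in WT replicates 1 to 3. The groups overlapped, since WT replicate 3 lay above KO replicate 3, and KO replicate 2 stood highest. The mean level was -2.25 ± 0.80 in KO and -3.20 ± 0.50 in WT (SD, n = 3 each), a log2 change of 0.95 ± 0.43 (SE). The SDs were larger than those of 97.0% (KO) and 93.1% (WT) of the tested probes. Over the alternatives the log2 change stayed positive, from 0.51 without KO replicate 2 to 1.54 with slide column as a block, and was called under none of them.

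Of the Dkk genes, Dkk1 and Dkk2 gave no detectable signal. Dkk1, on chromosome 19, read 10.6, 10.98 and 7.06 in KO replicates 1 to 3, against 13.1, 11.8 and 15.3 in WT replicates 1 to 3. All 6 values lie below the lowest intensity that counted as detected on their array, so they have no order. A fall of Dkk1 RNA, or a rise that stayed below those limits, was not detectable here. Dkk2, on chromosome 3, read between 6.92 and 11.46 in KO mice and between 5.32 and 7.41 in WT mice.

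Dkk3, on chromosome 7, lay at the detection limit. Its brighter probe read 10.3, 14.9 and 42.8 in KO replicates 1 to 3, against 27.7, 22.8 and 39.2 in WT replicates 1 to 3. It was detected in KO replicate 3 and WT replicates 2 and 3, and the groups overlapped because KO replicate 3 was highest of all. Its log2 change was -0.73 ± 0.50 (SE, n = 3 and 3), negative under all 16 alternatives, from -1.31 without KO replicate 3 to -0.14 with normexp, and it rests on 3 arrays below detection. The second probe, not detected on any array, read 10.5, 15.2 and 29.0 in KO replicates 1 to 3, against 16.4, 16.1 and 17.0 in WT replicates 1 to 3.

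RefSeq promoter windows of GRCm38.p6, from 250 bases before to 50 after the gene start, were matched for 6 of the 9 genes. Sfrp1, Sfrp4 and Dkk3 had no window, so nothing below covers them. Windows were read for CG dinucleotides because CpG sites of this family are methylated in human tumours, and for TCF motifs because TCF factors carry the Wnt signal to DNA. Methylation was not measured. The windows of the genes detected on all arrays held 25 (Wif1), 22 (Sfrp2) and 15 (Sfrp5) CG dinucleotides. Those of the undetected genes held 20 (Frzb), 11 (Dkk2) and 9 (Dkk1), against a median of 7 over 32851 windows. The motif CTTTGNN, with A or T at each N and searched on both strands, was found in 1 of the 6 windows, that of Dkk1, at 117 and 98 bases before the gene start. It occurs in 16.9% of all windows. TATAAA on the strand of the gene was found in Dkk1 and Dkk2, at 54 and 32 bases before the start, and in 8.32% of all windows. The window richest in CG dinucleotides and the poorest are shown with CG in capitals, the first of a detected gene and the second of an undetected one, Wif1 at chr10:121033754-121034053 (plus strand) and Dkk1 at chr19:30549447-30549746 (minus strand).
Wif1: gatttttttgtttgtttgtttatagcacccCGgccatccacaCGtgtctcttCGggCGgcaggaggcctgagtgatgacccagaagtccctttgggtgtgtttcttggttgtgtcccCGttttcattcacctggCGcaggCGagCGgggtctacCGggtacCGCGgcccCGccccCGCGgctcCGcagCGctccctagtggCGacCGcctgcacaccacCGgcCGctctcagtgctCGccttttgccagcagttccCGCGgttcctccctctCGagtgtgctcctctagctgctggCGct
Dkk1: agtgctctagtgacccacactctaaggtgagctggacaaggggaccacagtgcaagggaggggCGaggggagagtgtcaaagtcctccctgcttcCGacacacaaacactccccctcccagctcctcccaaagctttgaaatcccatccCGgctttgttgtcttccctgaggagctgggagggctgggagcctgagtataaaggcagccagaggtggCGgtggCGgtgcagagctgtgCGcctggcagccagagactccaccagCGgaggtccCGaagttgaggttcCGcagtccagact

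Because several members are made by cells other than epithelium, marker lists were summed on each array as linear signal in units of the 75th percentile. All 11 epithelial markers, among them Epcam, Cdh1, Krt8 and Vil1, were detected on all 6 arrays, with sums of 138 to 157 in KO and 144 to 163 in WT. Markers of other cell types were detected too. Of 8 smooth muscle markers 5 were detected on every array (Lmod1 on none), with sums of 13.5 to 19.8 in KO and 16.2 to 19.7 in WT. Acta2, the smooth muscle actin, led these sums with levels of 3.19 to 3.81, while those of Myh11 lay between -4.81 and -4.18. Of 10 fibroblast markers 6 were detected on every array (Pdgfra on none). Their sums were 0.907, 1.35 and 2.11 in KO replicates 1 to 3, against 1.82, 0.990 and 1.38 in WT replicates 1 to 3. The groups overlapped for both lists (exact permutation test, two-sided, p = 1 for fibroblast and p = 0.7 for smooth muscle markers; 3 against 3 cannot go below 0.1).

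Among KO mice Sfrp1 was highest where the fibroblast and smooth muscle sums were lowest, in replicate 1, and lowest where they were highest, in replicate 3. That order of the sums is the order of their brightest markers, Dcn and Thy1 for fibroblasts and Acta2, Actg2 and Tagln for smooth muscle. The dimmer fibroblast markers Col1a1, Col3a1 and Col6a1 followed it too, while Col1a2 and Pdpn were lowest in KO replicate 1 and highest in replicate 2. The dimmer markers Lum, Dpt, Cnn1, Des and Synpo2 did not, each being lowest in KO replicate 3 and highest in replicate 2 among KO mice. Of these, Lum and Dpt were detected on only 1 array each, and Des and Synpo2 on 4. The brighter Dkk3 probe was detected in 1 KO mouse, replicate 3. Among WT mice it was detected in replicate 2, with the lowest fibroblast sum, and replicate 3, but not in replicate 1, with the highest. Detection did not follow its signal there. The probe read 27.7 in WT replicate 1 and 22.8 in WT replicate 2, where the lowest detected intensities were 34.5 and 22.2. Fewer cells of a type and less RNA per cell cannot be told apart in such samples. The part of other cell types in the values of Dkk3, Sfrp2 and Wif1 was not tested.

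Mast cell markers were the list whose sums did not overlap between genotypes. They were 1.90, 1.76 and 2.21 in KO replicates 1 to 3, against 0.9502, 1.12 and 1.64 in WT replicates 1 to 3 (exact permutation test, two-sided, p = 0.1, and 0.8 after Benjamini-Hochberg adjustment over 8 lists). All 4 markers were detected on at least some arrays, 3 of them on every array, and 1 of the 3 tested, Mcpt4, a mast cell protease, was called higher. Mcpt4 had levels of -1.55, -0.93 and -1.19 in KO replicates 1 to 3, against -3.60, -3.83 and -3.31 in WT replicates 1 to 3. Kit had the highest level of the 4 on every array, so it weighs most in the linear sum. Its levels overlapped, at 0.59, 0.23 and 0.77 in KO replicates 1 to 3, against -0.24, 0.04 and 0.60 in WT replicates 1 to 3. On the log2 scale the mean level of Fcer1a was 0.69 higher in KO mice, and that of Cpa3 2.14 higher. Cpa3 was detected on only 4 arrays. Its levels in WT replicates 1 and 2, -6.96 and -7.21, lay below the lowest detected levels there, -6.45 and -7.13. The Cpa3 difference therefore rests partly on undetected values and is no measure of fold. Like Sfrp1, the sum was higher in KO mice, although KO replicate 1, with the most Sfrp1, did not have the highest sum. Its part in the Sfrp1 difference was not tested. Leukocyte sums were 21.1 to 22.9 in KO and 19.0 to 22.6 in WT. They mostly reflect Itgam, with levels of 3.98 to 4.29, and can hide changes in dimmer leukocyte markers. Jchain was higher in every KO mouse, at -3.83, -3.19 and -3.41 in KO replicates 1 to 3. Its levels in WT replicates 1 to 3 were -4.67, -5.07 and -4.296. The other leukocyte markers overlapped between genotypes, and none of the 9 tested was called. Sums of enteric glia and neurons were 0.728 to 0.863 in KO and 0.627 to 0.970 in WT. Endothelial sums were 0.138 to 0.168 in KO and 0.142 to 0.208 in WT, and adipocyte sums 0.0852 to 0.0904 in KO and 0.0895 to 0.106 in WT. The endothelial markers Cdh5, Emcn, Kdr and Tek were not detected on any array, nor were the glial markers S100b and Sox10.

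**Figure D3:**
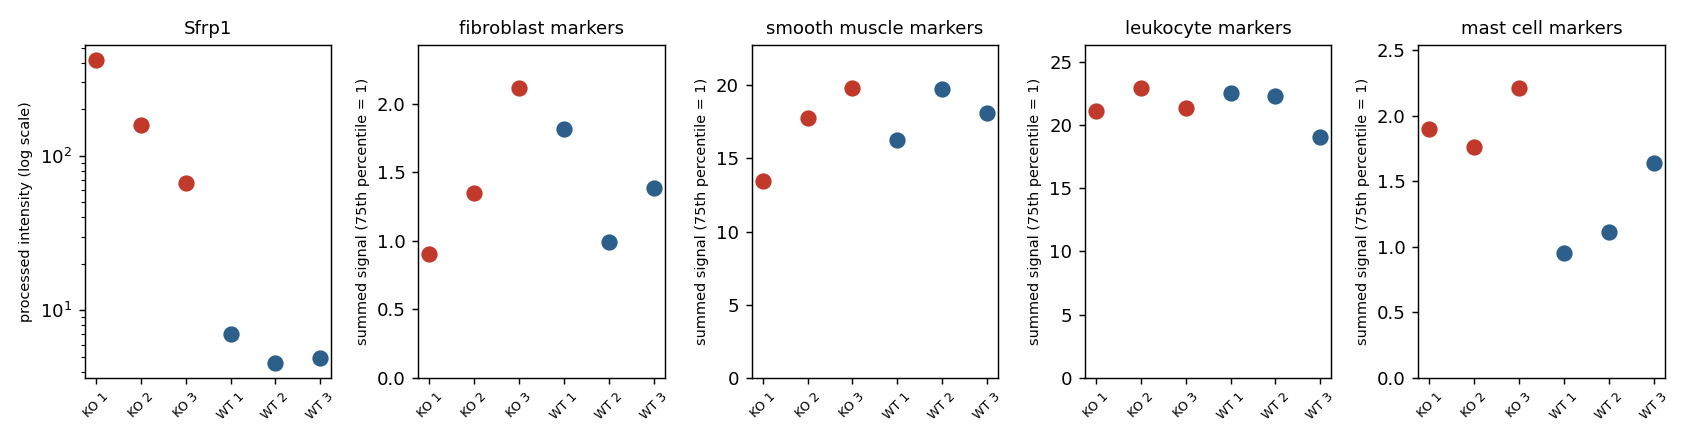
Processed intensity of Sfrp1 (log scale) and summed signal of fibroblast, smooth muscle, leukocyte and mast cell markers (75th percentile of the array = 1) on the 3 KO arrays (red) and the 3 WT arrays (blue). Of the KO mice, KO 1 has the most Sfrp1 (420) and the lowest fibroblast sum (0.907), and KO 3 the least Sfrp1 (67.1) and the highest fibroblast sum (2.11); of the 4 sums only that of mast cells separates KO from WT. Each sum is led by its brightest markers.

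The genes these antagonists act on were compared in the same fit, with p-values adjusted over all 33231 probes. None of the 53 tested genes of 5 lists passed in either direction. With an unadjusted p under 0.05, counted on the brightest probe of a gene, 1 of 11 ligands, 1 of 12 receptors, 1 of 10 other antagonists, 2 of 5 R-spondins and their receptors and 4 of 15 target genes were found. This compares with 1399 of 15251 genes with a symbol, whose median log2 change was -0.03.

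Among the Wnt ligands, 11 of 19 genes were tested, with a median log2 change of -0.08, 5 above and 6 below 0. Wnt5a, a ligand of the beta-catenin-independent branch that crypt mesenchyme is known to make, had levels of -5.05, -4.48 and -4.63 in KO replicates 1 to 3, against -5.68, -5.50 and -5.37 in WT replicates 1 to 3. The groups did not overlap, and the log2 change of 0.79 ± 0.18 (SE, n = 3 and 3) did not pass (limma, adjusted p = 0.224). Its other, brighter probe gave 0.20 ± 0.18, so the size depends on the probe. Wnt11 had log2 changes of 0.44 ± 0.16 and 0.08 ± 0.17 by its probes, Wnt6 one of 0.43 ± 0.16 and Wnt7a one of -0.67 ± 0.29.

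Of 15 receptor genes 12 were tested, with a median of -0.02, 5 above and 7 below 0. Of the Frizzled receptor genes, Fzd3 had a log2 change of 0.65 ± 0.28, Fzd6 one of -0.23 ± 0.13, and Fzd5 0.37 ± 0.16 by one probe and -0.13 ± 0.12 by the other. Ror1, which encodes a receptor of Wnt5a, had one of -0.96 ± 0.22 (SE, n = 3 and 2, adjusted p = 0.261 in limma). Of 16 other antagonists and regulators 10 were tested, with a median of -0.02, 4 above and 6 below 0. Igfbp4, which encodes a secreted protein that binds insulin-like growth factors and can block Wnt receptors, had levels of -4.75, -4.29 and -4.48 in KO replicates 1 to 3, against -3.76, -3.29 and -3.88 in WT replicates 1 to 3. All KO mice lay below all WT mice by this probe, and the log2 change of -0.86 ± 0.20 did not pass (limma, adjusted p = 0.239), while the brighter probe of Igfbp4 gave 0.04 ± 0.14. Kremen1 and Kremen2 encode receptors of Dkk1. The probes of Kremen1 had log2 changes between -0.35 and -0.02, Kremen2 had one of 0.32 ± 0.16 (SE, n = 3 and 2), and Dkkl1, a Dkk3-related gene, one of 0.43 ± 0.17.

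R-spondins strengthen Wnt signals by way of the Lgr4, Lgr5 and Lgr6 receptors. Of these 7 genes 5 were tested, with a median log2 change of -0.55, 1 above and 4 below 0. Lgr4 had one of -0.55 ± 0.22 (SE, n = 3 and 2), Lgr6 one of -0.56 ± 0.23 and Lgr5 one of -0.16 ± 0.26. Rspo1 had levels of -6.64, -5.69 and -3.95 in KO replicates 1 to 3, against -4.36, -5.21 and -4.45 in WT replicates 1 to 3. The groups overlapped, and KO replicate 1 lay below the detection limit of its array. Of 18 target genes 15 were tested, with a median of -0.03, 6 above and 9 below 0. The 4 with the smallest unadjusted p were all above 0, and the lowest adjusted p was that of Prox1, a transcription factor gene (log2 change 1.14 ± 0.19, limma, adjusted p = 0.123). The probes of Mmp7, a matrix protease gene, gave log2 changes of 1.37 ± 0.37 and 1.43 ± 0.43, and those of Cd44, a cell surface receptor gene, 0.87 ± 0.19 and 0.76 ± 0.18. Tnfrsf19, a receptor gene, had 0.62 ± 0.26 and 0.38 ± 0.20, with overlapping groups. Both probes of Myc, a transcription factor gene named after its values were seen, lay below WT in all KO mice measured, with log2 changes of -0.36 ± 0.17 (SE, n = 2 and 2) and -0.20 ± 0.11 (SE, n = 3 and 3).

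**Figure D4:**
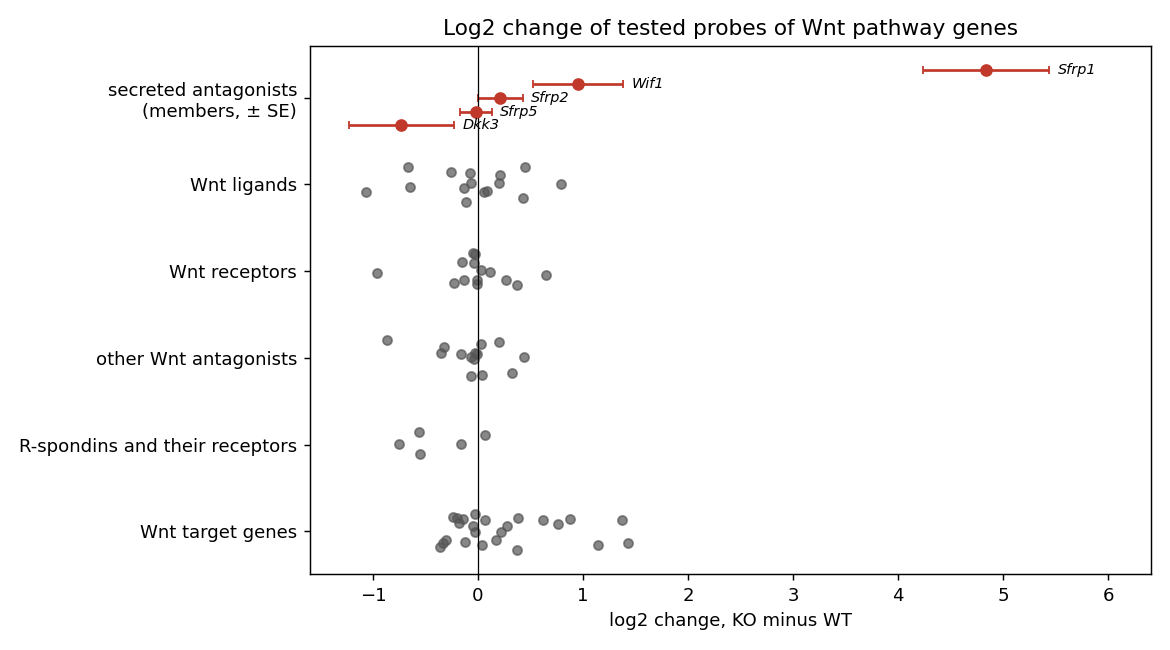
Log2 change (x axis, KO minus WT) of the 5 tested members with their SE (red) and of each tested probe of 5 lists of Wnt pathway genes (grey). Sfrp1 stands at 4.84 and Wif1 at 0.95, the other 3 members lie between -0.73 and 0.21, and the grey points spread on both sides of 0.

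Of the tested probes that were ranked, those whose level ran most like that of Sfrp1 over the 6 arrays belonged to Dhps, Unkl, Shoc2, Nfkbid and Cyb5rl, with Pearson's r between 0.982 and 0.996. The ranking covered 14727 probes of genes with a symbol and a value on all 6 arrays, of which 55 had r over 0.95. The 3 WT values of Sfrp1 are stand-ins, and the gene was chosen for its split between the genotypes, which raises r for any probe that splits the same way, so the ranking is only a description of these 6 arrays. Dhps, which encodes deoxyhypusine synthase and lies on chromosome 8 as Sfrp1 does, had levels of -1.66, -1.82 and -2.24 in KO replicates 1 to 3, and its log2 change was 0.99 ± 0.18. Shoc2, which encodes a scaffold of RAS signalling, had one of 0.90 ± 0.18. The others had log2 changes of 0.40 ± 0.12 (Unkl), 0.17 ± 0.11 (Nfkbid) and 0.57 ± 0.12 (Cyb5rl).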

How the data were processed

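RNA of 6 colonic epithelium samples was labelled with Cy3 and hybridised to single-colour Agilent arrays. Per the file headers, the deposited intensity values came from Agilent Feature Extraction 11.5.1.1 (the submitters' processing notes name version 10.7), background-subtracted within each array, with no scaling across arrays. The series table that the authors deposited repeats these intensity values, at least 99.66% of them on each array to within 0.01 on the log2 scale. The array design names mm9, so RefSeq's GRCm38.p6 table gave symbols (33767 of 56605 probes) and chromosomes only.

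The processed intensity was taken as log2 minus the 75th percentile over the 59305 non-control spots (3005 to 3539 per array). Marked spots (4.95% to 17.3% per array) were left out and spots of a probe averaged. A probe was tested when detected on at least 3 arrays with at least 2 unmarked arrays per group. A two-sided limma 3.58.1 fit (lmFit, then eBayes) of KO against WT was made in R 4.3.3 without covariates, with Benjamini-Hochberg adjustment over all 33231 probes and a threshold of 0.05. The fit was also run on simulated, normally distributed levels with known changes added. That run did not model stand-in values, so it says nothing of Sfrp1. The p-values set the difference between the groups against the spread within a genotype, moderated over all tested probes. The number of arrays limits the precision of these p-values. For Sfrp1 the spread within WT is one of stand-in values.

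Members, lists and tests were chosen with earlier results of these data known. Named genes were all members, up to 4 genes of each Wnt list with the smallest unadjusted p, and the 5 ranked probes most correlated with Sfrp1. Some cell type markers were named after their values were seen. The files hold no mean spot signal, so normexp used the median signal in place of the planned one. Alternatives covered background correction, normalization, filters, probes per gene, blocks and leaving out each array. In such fits with an array left out the tested probes were kept as they were.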

Additional observations from a re-analysis of the deposited data

How the results depend on the processing

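Of the 5 tested members, Sfrp1, Sfrp2 and Wif1 kept a positive and Dkk3 a negative log2 change under all 16 alternatives, while Sfrp5, near 0, took both signs. Sfrp1 was called under 10 of them and not under 6 (limma), a description only, since the family was chosen by this difference. Member calls were 0 with normexp, an alternative chosen after seeing the data, and 0 without the filter on dim probes, where more probes share the adjustment. With 1 array left out they ranged from 0 to 1. Calls over all probes, 69 as reported, were 125 with normexp, 44 without the filter, 128 with trend and robust variance, 118 with array weights, 195 with slide column as a block, and 31 to 141 with 1 array left out. Wnt list calls were 0 throughout. Slide column pairs only 2 KO with 2 WT arrays. The labels give no replicate numbers shared by the groups, so mice could not be paired. Blocking on the series of animal numbers in the sample titles gave 77 calls over all probes and 1 member call. The cause of these shifts was not tested. The log2 ratio of summed epithelial markers was 0.0271 with quantile normalization, against -0.0307 as reported. With 1 array left out, log2 ratios ranged from -0.0764 to 0.0275 for epithelium, -0.31 to 0.31 for fibroblasts and -0.208 to 0.0588 for smooth muscle. They ranged from -0.18 to 0.12 for enteric glia and neurons and -0.0415 to 0.0765 for leukocytes. Those of mast cells stayed positive, from 0.50 to 0.92. Those of endothelium (-0.367 to -0.106) and adipocytes (-0.251 to -0.131) stayed negative. Signal over background limits what can be said of Sfrp4, Frzb, Dkk1, Dkk2 and most values of Dkk3.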
